A study of Mus musculus with 4 samples.

Results

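The genes described here are the 10 that make and load mouse MHC class I molecules: the heavy chains H2-K1, H2-D1 and H2-T23, the light chain B2m, the peptide transporter subunits Tap1 and Tap2, tapasin (Tapbp), and the immunoproteasome subunits Psmb8, Psmb9 and Psmb10. Their probe sets were found by symbol in the platform annotation of the array, taking the one with the highest mean signal for each gene. All 10 were measured among 19505 genes with a named probe set, and each had 1 probe set. The genes were chosen with earlier results of these data known. Shares over all probe sets beside their counts are therefore a scale and not a test. RNA of MC38 cells, a mouse colon adenocarcinoma line, was hybridised to the Clariom S mouse array, which gives 1 summarised signal per probe set. The knockout group held KO T5 clone 1 and KO T5 clone 2, in which Mgat5, the gene of an enzyme that adds a branch to N-glycans, was targeted with CRISPR-Cas9. The control group held MOCK cells, which carry an empty vector, and untransfected WT cells. Each of these was read on 1 array, so each group had 2 arrays. The knockout titles say clone and the control titles do not, so Mgat5 loss and clonal origin cannot be told apart. Every sample, MOCK and WT too, has a cell label that names the knockout; the groups here follow the titles and the study design.

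MHC class I molecules carry short peptides from inside the cell to its surface, where CD8+ T cells and natural killer cells read them. Proteasomes cut proteins into these peptides. The immunoproteasome, whose 3 inducible catalytic subunits replace constitutive ones, cuts in a way that favours class I binding. The peptide transporter moves the peptides into the endoplasmic reticulum, where tapasin holds the transporter and the empty heavy chain with its light chain together until a peptide is bound. Most of these genes are induced by interferons, and tumour cells can carry low levels of them.

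The promoters of the classical heavy chains hold a compact set of motif matches. The same search found only part of that set for the shared light chain and the transporter, so 4 promoters are printed. Each is the 300-base RefSeq window of GRCm38.p6, read 5′ to 3′ on the gene's strand, with 250 bases before the start and 50 after it. Capitals mark matches, on either strand, to 4 motifs. These are the ISRE-like motif (GAANNGAAA, or the same with 1 more A before the NN), the kappa B-like motif GGGNNTTCC, the CRE core TGACG and the CCAAT box, spelled CCAAT. The windows lie at chr17:34000298-34000597 on the minus strand for H2-K1, at chr17:35262844-35263143 on the plus strand for H2-D1, at chr2:122147437-122147736 on the plus strand for B2m and at chr17:34187306-34187605 on the plus strand for Tap1.
H2-K1: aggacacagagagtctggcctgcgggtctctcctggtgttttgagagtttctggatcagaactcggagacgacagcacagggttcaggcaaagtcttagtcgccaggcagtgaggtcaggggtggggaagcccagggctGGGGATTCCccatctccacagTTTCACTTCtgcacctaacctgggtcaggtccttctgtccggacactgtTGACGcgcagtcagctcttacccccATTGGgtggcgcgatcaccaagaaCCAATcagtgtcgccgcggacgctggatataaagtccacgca
H2-D1: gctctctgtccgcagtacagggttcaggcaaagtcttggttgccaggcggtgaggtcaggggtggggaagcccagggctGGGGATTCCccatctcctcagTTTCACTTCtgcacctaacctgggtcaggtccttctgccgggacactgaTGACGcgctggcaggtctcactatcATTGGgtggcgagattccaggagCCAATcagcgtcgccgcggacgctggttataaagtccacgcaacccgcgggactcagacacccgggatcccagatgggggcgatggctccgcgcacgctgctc
B2m: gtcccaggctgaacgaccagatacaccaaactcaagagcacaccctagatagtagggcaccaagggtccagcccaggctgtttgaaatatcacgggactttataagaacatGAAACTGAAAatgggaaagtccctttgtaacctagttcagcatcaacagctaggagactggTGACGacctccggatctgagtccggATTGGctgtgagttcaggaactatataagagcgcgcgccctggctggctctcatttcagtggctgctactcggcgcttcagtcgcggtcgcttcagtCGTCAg
Tap1: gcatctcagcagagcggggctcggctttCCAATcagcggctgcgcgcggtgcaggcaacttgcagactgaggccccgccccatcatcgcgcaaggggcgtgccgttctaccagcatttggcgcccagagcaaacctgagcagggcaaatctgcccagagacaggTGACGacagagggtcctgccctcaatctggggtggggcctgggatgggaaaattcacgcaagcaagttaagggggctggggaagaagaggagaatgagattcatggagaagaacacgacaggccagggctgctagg
The H2-K1 and H2-D1 windows were identical at 211 of 239 aligned bases (88.3%), against 59.8% for H2-K1 and B2m and 57.2% for H2-K1 and H2-T23. In H2-K1 the kappa B-like match began 111 bases before the start, the ISRE-like match 90 and the CRE core 41. In H2-D1 they began 171, 150 and 101 bases before it, so they kept their order and spacing. B2m held an ISRE-like match at 139 bases and a CRE core at 78 bases before the start, and the Tap1 window held a CRE core at 86 bases and a CCAAT box at 222 bases. Windows were found for 9 of the 10 genes, and none was used for Tap2.

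Matches to these motifs were not rare in mouse promoters. The ISRE-like motif was found in 4 of the 9 windows (H2-K1, H2-D1, H2-T23 and B2m) and in 10.4% of 32851 windows of the same length. The kappa B-like motif was in 2 of the 9 (H2-K1 and H2-D1) and in 5.82% of all windows. Kappa B spellings with another spacing were not searched, so a window without a match, B2m included, can still hold such a site. The CRE core was in 5 of the 9 and in 20.8% of all, and the CCAAT box in 7 of the 9 and in 37.4% of all. A GAS-like motif, TTCNNNGAA, was in the Psmb8 window alone among the 9 and in 8.3% of all windows. No match to any of these motifs lay in the Psmb10 window. Tap1 and Psmb9 start 226 bases apart on opposite strands, and their windows share 275 bases. Their CRE core matches are the same site, as are their CCAAT box matches, and each site is counted for both genes. A match is a run of letters, and binding was not measured.

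**Figure D1:**
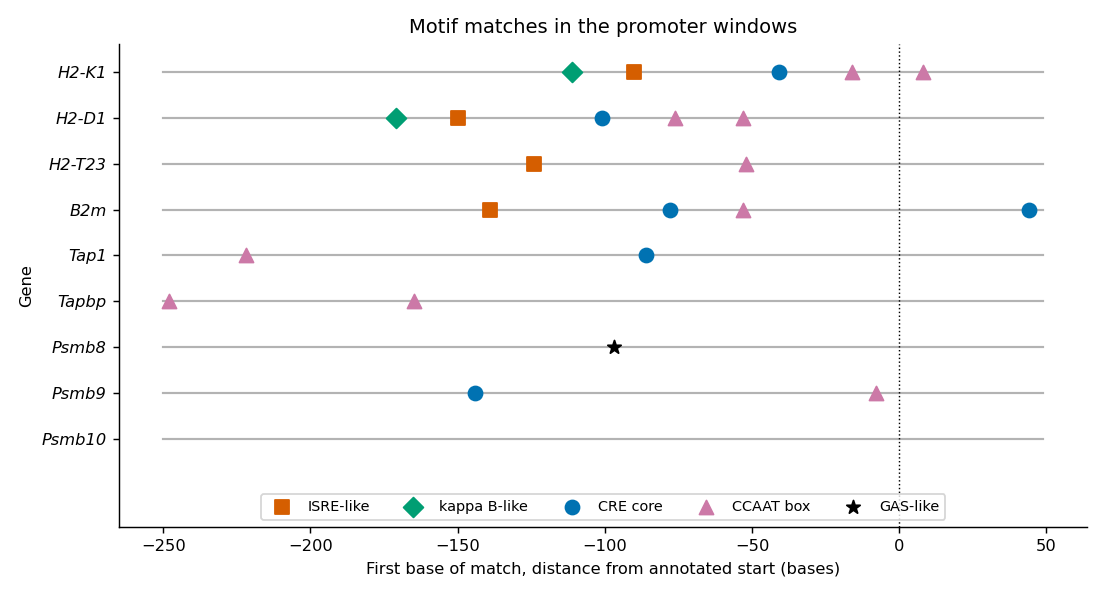
Positions of motif matches in the RefSeq promoter windows of the measured class I and loading genes, in bases from the start of the gene. H2-K1 and H2-D1 hold the kappa B-like, ISRE-like and CRE core matches in the same order, and Psmb10 holds none.

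The arrays differed in overall brightness, and no batch is given for any of them. The 75th percentile of the log2 signal was 9.39 in clone 1 and 9.60 in clone 2, against 9.26 in MOCK and 8.87 in WT. Among 4477 probe sets with a mean signal of at least 10, MOCK minus WT had a median of 0.72 log2 units, and 3663 of them were lowest in WT. Of the 10 genes 9 were lowest in WT, against 46.4% of all probe sets. After quantile normalization, which gives all arrays 1 distribution, 5 of the 10 were lowest in WT. That compares with 23.2% of all probe sets and 1011 of the 4477. The main counts and tests are given on both scales. Mgat5 read 7.46 and 7.57 in clone 1 and clone 2, against 8.19 in MOCK and 8.27 in WT, a difference of -0.71 ± 0.37 (SE; limma, adjusted p = 0.631). Both knockout arrays lay below both controls for the targeted gene. Of 10 markers of colon epithelium, 8 lay below the median of the negative control features on all 4 arrays, Epcam and Cdh1 among them, so the labelled epithelial origin was not seen in these markers. In bulk RNA, more cells with a transcript and more transcript per cell cannot be told apart.

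Across both knockout arrays against both control arrays, none of the 10 genes passed the test. All 10 had a higher knockout mean (H2-T23 below background), as had 14460 of 22206 probe sets. After quantile normalization the numbers were 10 and 10723. The limma test, with Benjamini-Hochberg adjustment over 22206 probe sets, called 0 of the 10 at adjusted p under 0.05, and called 9 probe sets in all (0.0405%). At an unadjusted p under 0.05 it counted 5 of the 10 genes and 1944 of all probe sets. After quantile normalization the calls were 0 of the 10 and 1 in all (0.0045%), and the unadjusted counts were 2 and 1980. The 10 differences had a median of 1.23 log2 units against 0.18 over all probe sets, and 0.79 against -0.02 after quantile normalization. An exact permutation test of 2 arrays against 2 cannot give a two-sided p below 0.333. Nothing in the labels says that the arrays came from separate cultures, so the p-values measure the spread between these arrays alone.

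Clone 2 carried the high values. It was the highest of the 4 arrays for 9 of the 10 genes, against 39.2% of all probe sets, and for 9 of 10 against 27.3% after quantile normalization. Clone 2 lay at least 1 log2 unit above the control mean for 8 of the 10 genes (11.8% of all probe sets; after quantile normalization 8 and 5.41%). Clone 1 reached that size for 0 of the 10 (6.31% of all probe sets; after quantile normalization 0 and 3.94%). The median difference from the controls was 2.24 log2 units in clone 2 and 0.53 in clone 1, against medians over all probe sets of 0.24 and 0.12. Both clones share these controls. After quantile normalization the medians of the 10 genes were 1.74 in clone 2 and 0.20 in clone 1, against -0.03 and -0.02 over all probe sets.

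With clone 1 left out, limma compared the clone 2 array with both controls, taking the spread from the controls alone, so the lone array is assumed to vary as they do. It called 6 of the 10 genes higher, against 2.16% of all probe sets. After quantile normalization it called the same 6, against 2.32% of all probe sets. They were H2-D1, Tap1, Tap2, Psmb8, Psmb9 and Psmb10. With clone 2 left out, 0 of the 10 were called higher for clone 1 (0.594% of all probe sets) as deposited, and adjusted p ran between 0.736 and 0.960.

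The clones were also compared with each other, 1 array against 1, in a fit added after seeing the data that took the spread from the controls and so does not measure the spread within a clone. Clone 2 was at least 1 log2 unit above clone 1 for 8 of the 10 genes, against 8.6% of all probe sets, and for 8 of 10 against 5.54% after quantile normalization. Psmb9 and Psmb10 passed the test as deposited (2 of 10, against 0.806% of all probe sets), and Tap1 passed with them after quantile normalization (3 of 10, against 1.26%). Between the controls, only H2-K1 was at least 1 log2 unit higher in MOCK than in WT (1 of 10, against 8.79% of all probe sets), and after quantile normalization none was (1.85%). Both clones lay above both controls for 6 of the 10 genes, H2-D1, H2-T23, Tap1, Tap2, Tapbp and Psmb8, against 27.8% of all probe sets. After quantile normalization that held for 4 of the 10, H2-D1, H2-T23, Tap1 and Psmb8, against 19.2%.

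**Figure D2:**
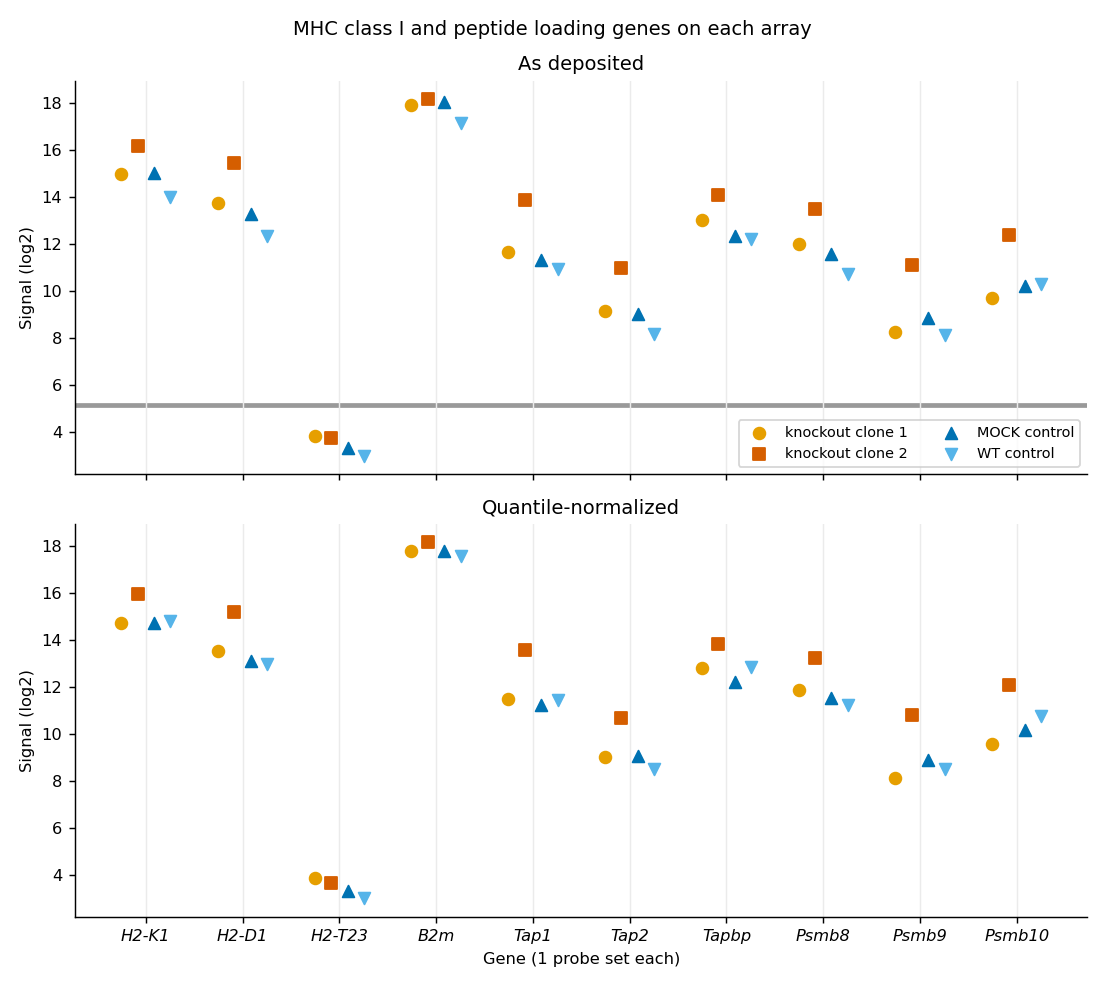
Log2 signal of the 10 genes on each array, with clone 1 and clone 2 before MOCK and WT, as deposited (top; grey line, negative control medians) and after quantile normalization (bottom). Clone 2 is the highest array for 9 of the 10 genes on both scales, and H2-T23 lies lowest on all 4 arrays.

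Among the heavy chains, H2-D1 rose in clone 2 and H2-K1 did not pass the test. H2-D1 encodes a classical heavy chain that presents peptides to CD8+ T cells. Its log2 signal was 13.75 in clone 1 and 15.47 in clone 2, against 13.30 in MOCK and 12.34 in WT. Clone 2 stood apart, and clone 1 lay above both controls. Clone 2 minus controls was 2.66 ± 0.52 log2 units (SE; limma, adjusted p = 0.00479), or 6.30-fold, and 2.18 (4.54-fold, adjusted p = 0.00353) after quantile normalization. Both knockouts averaged 14.61 ± 1.22 and the controls 12.82 ± 0.68 (SD, n = 2 each), a difference of 1.80 ± 0.57 (SE; limma, adjusted p = 0.378).

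H2-K1 encodes the other classical heavy chain measured here. It read 15.02 in clone 1 and 16.17 in clone 2, against 15.04 in MOCK and 14.03 in WT. Clone 1 and MOCK were nearly equal, clone 2 lay above them and WT below. The excess of clone 2 over the controls was 1.63 ± 0.53 (SE; limma, adjusted p = 0.131), or 3.10-fold as deposited and 2.28-fold after quantile normalization (adjusted p = 0.0941). Its difference of 1.01 between MOCK and WT became -0.10 after quantile normalization, which left clone 2 as the array that stood apart. Over both knockouts it averaged 15.59 ± 0.82, against 14.54 ± 0.71 in the controls (SD, n = 2 each; limma, adjusted p = 0.589).

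H2-T23 encodes the heavy chain of Qa-1, which presents leader peptides of other class I chains to natural killer cell receptors. Its signal was 3.82 in clone 1, 3.74 in clone 2, 3.35 in MOCK and 2.99 in WT. All 4 values lay under the median of the negative control features, which ran between 5.12 and 5.22, so no fold is given. B2m, the light chain that every classical class I molecule needs, read 17.92 in clone 1 and 18.19 in clone 2, against 18.06 in MOCK and 17.18 in WT. It lay above 99.94% to 99.98% of all probe sets, close to the brightest signal on each array. Its difference in clone 2 from the controls was 0.57 ± 0.52 (SE; limma, adjusted p = 0.749), or 0.49 after quantile normalization (adjusted p = 0.543), and clone 1 lay between MOCK and WT.

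The transporter subunits rose together in clone 2. Tap1 and Tap2 form the channel that carries peptides into the endoplasmic reticulum. Tap1 read 11.66 in clone 1 and 13.88 in clone 2, against 11.33 in MOCK and 10.96 in WT. Clone 1 lay just above both controls and clone 2 far above all. For clone 2 the difference from the controls was 2.73 ± 0.49 (SE; limma, adjusted p = 0.00237), or 6.63-fold, the largest of the 10, and 2.23 (4.69-fold, adjusted p = 0.00321) after quantile normalization. Clone 2 minus clone 1 was 2.22 ± 0.57 (SE; limma, adjusted p = 0.0652 as deposited and 0.0178 after quantile normalization).

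Tap2 read 9.15 in clone 1 and 10.98 in clone 2, against 9.03 in MOCK and 8.17 in WT. Clone 1 lay close to MOCK, and clone 2 was 2.38 ± 0.52 above the controls (SE; limma, adjusted p = 0.0109), or 5.21-fold, and 3.69-fold after quantile normalization (adjusted p = 0.0131). Tapbp encodes tapasin, which bridges the transporter and the heavy chain. It read 13.02 in clone 1 and 14.11 in clone 2, against 12.34 in MOCK and 12.23 in WT. Here the controls were close and both clones lay above them, but after quantile normalization clone 1 at 12.83 lay between MOCK at 12.23 and WT at 12.85. Clone 2 minus controls was 1.82 ± 0.49 (SE; limma, adjusted p = 0.0518), or 3.54-fold, and 2.46-fold after quantile normalization (adjusted p = 0.0900).

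**Figure D3:**
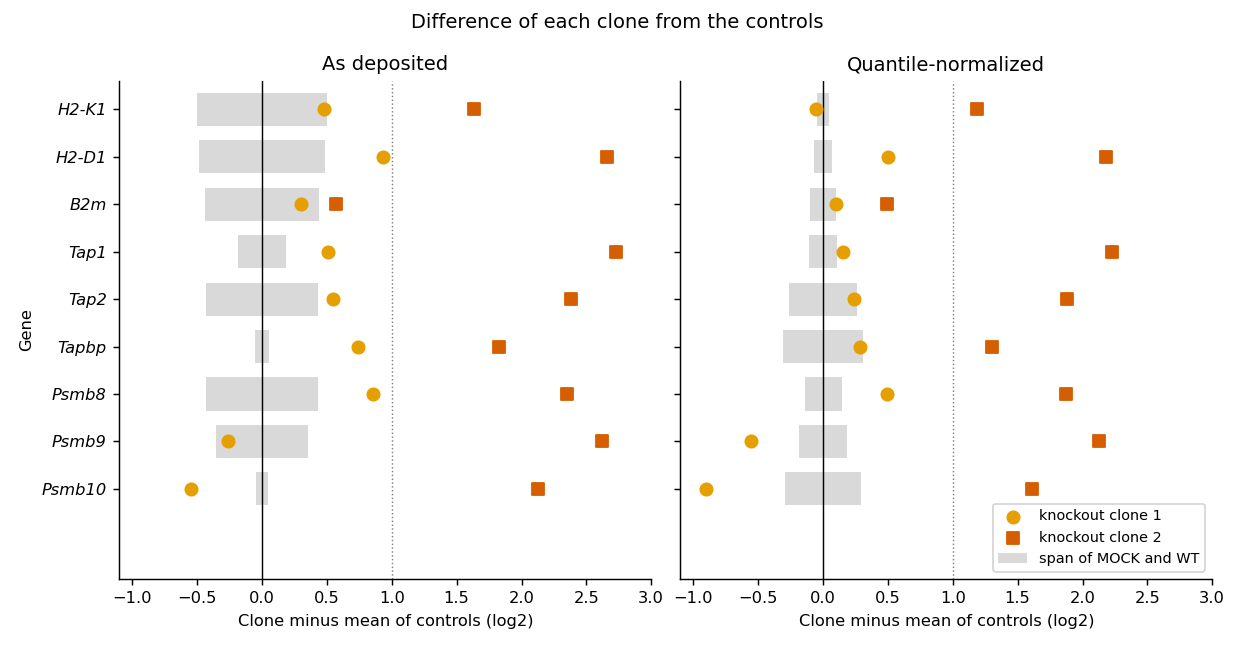
Differences in log2 signal for 9 of the 10 genes, H2-T23 left out as below background, clone 1 and clone 2 each against the mean of the controls, as deposited and after quantile normalization; grey bars span MOCK and WT and the dotted line marks 1 log2 unit. Clone 2 lies at least 1 log2 unit above the controls for 8 genes on both scales, and clone 1 for none.

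All 3 immunoproteasome subunits rose in clone 2, while Psmb9 and Psmb10 were below the control mean in clone 1. Psmb8, the subunit that takes the place of Psmb5, read 12.03 in clone 1 and 13.52 in clone 2, against 11.61 in MOCK and 10.74 in WT. Both clones lay above both controls. In clone 2 the difference from the controls was 2.35 ± 0.52 (SE; limma, adjusted p = 0.0120), or 5.09-fold, and 3.65-fold after quantile normalization (adjusted p = 0.0109).

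Psmb9, which replaces Psmb6, read 8.26 in clone 1 and 11.13 in clone 2, against 8.87 in MOCK and 8.16 in WT. Clone 1 lay between the controls and clone 2 far above them, by 2.62 ± 0.51 (SE; limma, adjusted p = 0.00433), or 6.14-fold, and 4.37-fold after quantile normalization (adjusted p = 0.00506). Psmb10, which replaces Psmb7, read 9.72 in clone 1 and 12.39 in clone 2, against 10.22 in MOCK and 10.31 in WT. The controls were nearly equal, clone 1 lay below both and clone 2 above both, by 2.13 ± 0.49 from the control mean (SE; limma, adjusted p = 0.0174), or 4.36-fold, and 3.05-fold after quantile normalization (adjusted p = 0.0341).

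Psmb9 and Psmb10 passed the contrast of the clones as deposited, with the limit that each clone is 1 array. Clone 2 minus clone 1 was 2.88 ± 0.59 for Psmb9 (SE; limma, adjusted p = 0.0108), a 7.34-fold difference, with adjusted p = 0.00346 after quantile normalization. For Psmb10 it was 2.67 ± 0.57 (SE; limma, adjusted p = 0.0147), or 6.38-fold, with adjusted p = 0.00778 after quantile normalization. For the remaining genes that rose in clone 2 the clones were not told apart as deposited: adjusted p was 0.294 for H2-D1, 0.220 for Tap2 and 0.444 for Psmb8, with differences of 1.72 ± 0.60, 1.83 ± 0.60 and 1.49 ± 0.60 (SE). A p above the threshold does not show that the clones were alike for these.

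The constitutive partners of these subunits gave no call. Psmb6 read 12.88 in clone 1 and 13.24 in clone 2, against 13.06 in MOCK and 11.85 in WT, and Psmb7 read 14.52 and 14.87, against 14.76 and 13.40. For both, clone 1, clone 2 and MOCK lay close together and WT below them. Taken as a ratio within each array, Psmb9 over Psmb6 was 3.55-fold higher in clone 2 than in the controls, and Psmb10 over Psmb7 2.52-fold (3.63-fold and 2.37-fold after quantile normalization). The same ratios were -0.68 and -0.99 log2 units from the controls in clone 1, and MOCK minus WT was -0.50 and -1.45. After quantile normalization they were -0.56 and -0.88 in clone 1, and -0.10 and -0.91 for MOCK minus WT. Of 13 measured proteasome core subunits, only Psmb6 and Psmb7 are ones that the inducible subunits replace. Of the 13, 0 were called across both knockouts, against 0.0405% of all probe sets. In clone 2, 0 lay at least 1 log2 unit above the controls, against 11.8% of all probe sets. Their median difference from the controls in clone 2 was 0.06 (-0.43 after quantile normalization). Psmb5 was not analysed here.

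Other genes of the pathway were taken from lists chosen for this text. The first held interferon receptors and signalling genes besides the factors that act on class I promoters. Of 20 measured, 0 passed the test across both knockouts, against 0.0405% of all probe sets. In clone 2, 7 of the 20 lay at least 1 log2 unit above the controls, against 11.8% of all probe sets. After quantile normalization 3 did, against 5.41%: Stat2, Irf1 and Irf9. Stat2 and Irf9 are parts of the factor that type I interferon activates, and Irf1 is a factor induced by interferon gamma that binds ISRE-like sites. Stat2 read 10.15 in clone 1 and 13.28 in clone 2, against 10.70 in MOCK and 10.52 in WT. Irf1 read 10.25 and 13.17, against 11.06 and 10.43, and Irf9 read 7.93 and 9.89, against 7.81 and 7.57. Clone 2 stood above all other arrays for each of them. Clone 2 minus controls was 2.67 ± 0.49 for Stat2 (SE; limma, adjusted p = 0.00257), 2.42 ± 0.50 for Irf1 (adjusted p = 0.00776) and 2.20 ± 0.49 for Irf9 (adjusted p = 0.0137).

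Between the clones Stat2 and Irf1 passed the test as well (limma, adjusted p = 0.00382 and 0.00930), and Irf9 passed after quantile normalization (adjusted p = 0.0437) and not as deposited (0.128). Rfx5 and Rfxank, which bind the X box of class I and class II promoters, were 1.30 and 1.31 log2 units above the controls in clone 2 (limma, adjusted p = 0.233 and 0.224), and 0.76 and 0.80 after quantile normalization. Nlrc5 was not analysed here. The median over the list was 0.58 log2 units in clone 2 and 0.12 after quantile normalization.

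The chaperones and helpers of peptide loading gave no call across both knockouts, which was also true of nearly all probe sets. Of 12 measured, 0 passed across both knockouts, against 0.0405% of all probe sets. In clone 2, 3 lay at least 1 log2 unit above the controls, against 11.8% of all probe sets. After quantile normalization 1 did, against 5.41%. The 3 were Psme2 and Psme1, the subunits of an activator of the proteasome, and Tapbpl, a tapasin-related peptide editor, at 1.70, 1.36 and 1.30, and at 1.18, 0.88 and 0.84 after quantile normalization. Pdia3, which works with tapasin in the loading complex, had the opposite order: 15.51 in clone 1 and 14.38 in clone 2, against 14.59 in MOCK and 13.80 in WT. Clone 1 was its highest array, and clone 2 minus clone 1 was -1.12 (limma, adjusted p = 0.717).

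Several other class I genes were also high in clone 2. Of 15 measured, 8 lay at least 1 log2 unit above the controls in clone 2, against 11.8% of all probe sets. After quantile normalization 6 did, against 5.41%: H2-Q4, H2-T10, H2-T22, H2-M3, Mr1 and Fcgrt. H2-T24 lay below both controls in both clones, at -0.99 log2 units from the control mean in clone 1 and -0.60 in clone 2. H2-T10 and H2-T22 encode ligands of gamma delta T cells, H2-M3 presents formylated peptides, and Mr1 presents metabolites of riboflavin synthesis to mucosal-associated invariant T cells. H2-Q4 read 10.93 in clone 1 and 13.04 in clone 2, against 10.93 in MOCK and 10.39 in WT, with clone 1 level with MOCK. Clone 2 minus controls was 2.38 ± 0.50 for H2-Q4 (SE; limma, adjusted p = 0.00842), 2.31 for H2-T10 (0.0170), 2.10 for H2-T22 (0.0238), 2.30 for H2-M3 (0.0115) and 2.13 for Mr1 (0.0174). Genes of this family are alike in sequence, and probe sets that read more than 1 of them were not looked for.

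**Figure D4:**
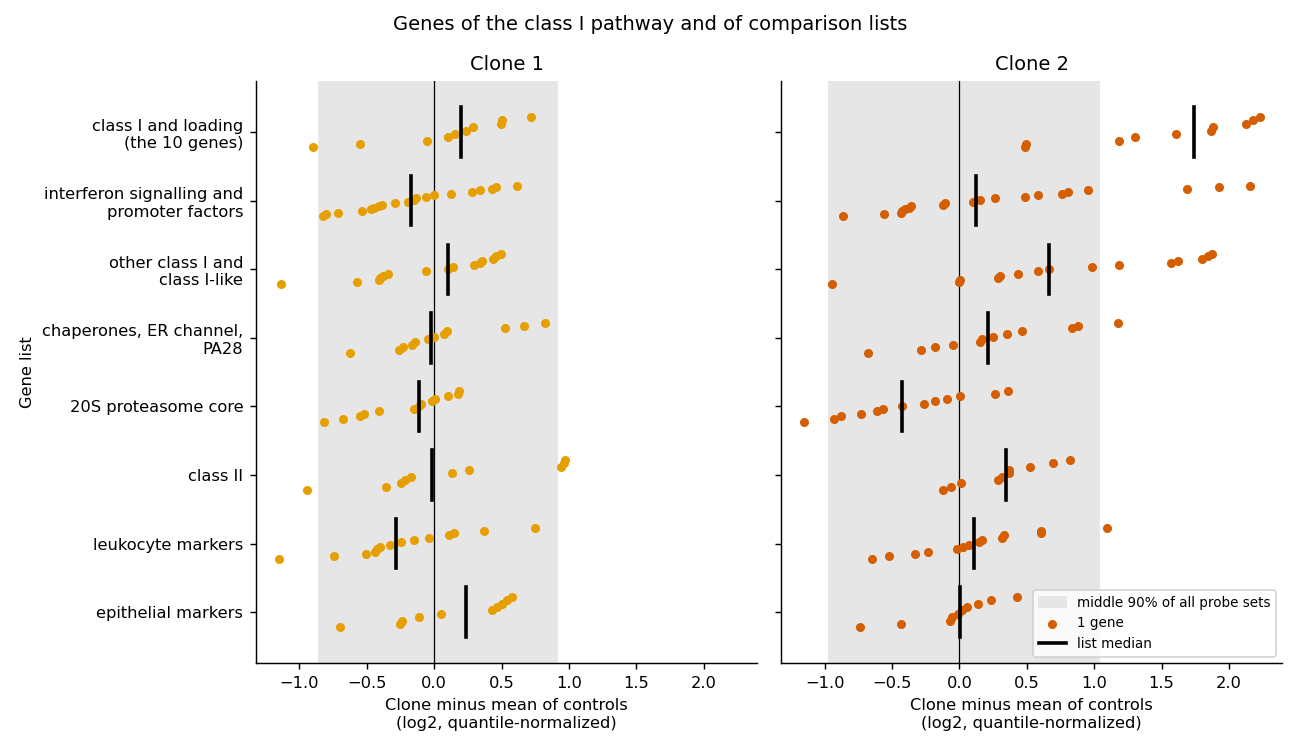
Quantile-normalized differences from the control mean, in log2 units, for the genes of each list, clone 1 left and clone 2 right; points are genes, bars list medians, and grey the middle 90% of all probe sets. In clone 2 the 10 class I and loading genes have a median of 1.74, the other class I genes 0.67 and the proteasome core subunits -0.43.

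Class II genes gave no call across both knockouts, where 0.0405% of all probe sets were called. Of 10 measured, 6 lay below the median of the negative control features on all 4 arrays, among them H2-Aa, H2-Eb1 and Ciita, the class II transactivator. H2-DMb1, a chain of the class II peptide editor, was bright: 12.82 in clone 1 and 12.66 in clone 2, against 11.55 in MOCK and 11.32 in WT. Both clones lay above both controls for it, by 1.31 ± 0.37 (SE; limma, adjusted p = 0.340), or 0.83 after quantile normalization. Psmb9, Tap1, Psmb8 and Tap2 lie next to one another on chromosome 17 among class II genes in RefSeq's order, and clone 2 was the highest array for these 4. It was also the highest for some others of that stretch and not for all. Clone 1 was the highest for H2-DMa, H2-DMb1 and H2-Aa, MOCK for H2-Ob and WT for H2-Ab1. Brd2, a bromodomain gene highest in clone 2, read 14.04 in clone 1 and 14.46 in clone 2, against 13.34 in MOCK and 12.66 in WT. H2-DMb2 read 5.62 and 6.54 in clone 1 and clone 2, against 5.45 and 5.41 in MOCK and WT. Except in clone 2, it lay below the 75th percentile of the negative control features, which ran between 6.29 and 6.56.

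**Figure D5:**
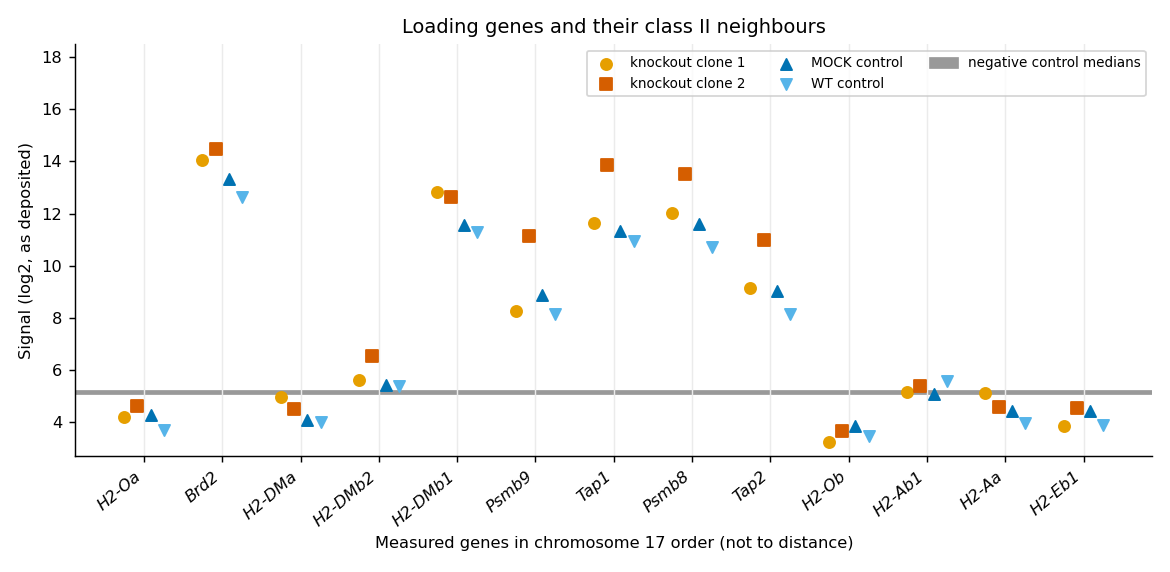
Log2 signal on each array for genes in chromosome order, H2-Oa to H2-Eb1, on chromosome 17. Psmb9, Tap1, Psmb8 and Tap2 are highest in clone 2, as are Brd2 and H2-DMb2 among others, while H2-DMa, H2-DMb1 and H2-Aa are highest in clone 1. Most class II neighbours lie near the negative control median.

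Leukocytes carry much MHC class I, so their markers were read on the same arrays. Of 14 measured, 11 lay below the median of the negative control features on all 4 arrays, and the summed log2 signal of the list was 53.8 in clone 1 and 60.4 in clone 2, against 58.8 in MOCK and 55.5 in WT. Ptprc, which all leukocytes carry, read 4.32 in clone 1 and 4.77 in clone 2, against 4.55 in MOCK and 4.47 in WT. Cd8a in clone 2 exceeded the control mean by 1.22 log2 units, at 5.27, close to the negative control median of 5.20 on that array. Across both knockouts 0 of the 14 were called, against 0.0405% of all probe sets.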

How the data were processed

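Biotin-labelled cDNA was made from column-purified total RNA after amplification, per the labels' protocols. The authors used the Transcriptome Analysis Console, per the submitters' processing notes; for its version, normalization, summarisation and genome build the sources used here say nothing. Values were deposited as log2 signals, a scale read from their range.

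From 28846 features, 6640 controls were removed, and the other 22206 probe sets entered limma 3.58.1 in R 4.3.3 (lmFit, eBayes, Benjamini-Hochberg over all), knockout against control, 2 arrays each, adjusted p under 0.05. Array number limits the precision. Added after seeing the data were the clone 2 minus clone 1 contrast and quantile normalization with a clone left out. The fit of 2 arrays against 2 was tested on simulated data, and the fits with a lone clone array were not. Promoters and gene names are RefSeq's (GRCm38.p6). All 10 members are named. Of each list, genes that passed and up to 4 with the largest difference, knockout minus control and clone 2 minus clone 1, could be named, with Nlrc5, Irf1, Psmb5, Psmb6 and Psmb7. Ptprc, Ciita, H2-T24 and the neighbouring genes in the plot were named in addition, after their values were seen. The members and lists were chosen with earlier results of these data known. Nlrc5, Psmb5 and some further listed genes were not analysed here. 0 columns lacked a sample.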

Additional observations from a re-analysis of the deposited data

Results flagged for a closer look

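Among the 10 genes and the listed genes open to naming, 4 that were above the negative control median on all arrays had clone 2 above both controls and clone 1 below both, as deposited and after quantile normalization. Some dimmer or unnamed listed genes had the same order. Listed genes were open to naming partly for a large clone 2 minus clone 1 difference, which favours this order. The share of all probe sets with the order was not counted. Psmb10 was 2.13 log2 units from the control mean in clone 2 and -0.55 in clone 1. Irf1 was 2.42 in clone 2 and -0.50 in clone 1, Stat2 2.67 and -0.46, and Rfx5 1.30 and -0.22. The clone 2 minus clone 1 difference passed limma's test for Psmb10 (adjusted p = 0.0147), Irf1 (0.00930) and Stat2 (0.00382), and not for Rfx5 (0.369). That contrast sets 1 array against 1 with the spread taken from the controls, and both clones are set against the same controls.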

How the results depend on the processing

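No paired analysis was possible because the labels match neither clone to a control. Leaving out each array in turn, the count of the 10 genes called ran between 0 and 6, and that of the 94 other listed genes between 0 and 8. Without clone 1 these were 6 and 8, and 6 and 8 again with quantile normalization; with any other array left out, 0 of the 10 were called. Over all probe sets the count was 9 as deposited, 1 after quantile normalization, 196 or 125 with probe sets under the median or 25th percentile of signal left out, 340 with trend and robust settings, and between 0 and 529 with an array left out, with 0 of the 10 genes called under these settings except without clone 1. With an array left out, the remaining knockout arrays lay above the remaining controls for between 6 and 10 genes. The count was 10 without clone 1, where clone 2 was the only knockout array, and 9 without MOCK, where WT was the only control. Fewer arrays make this order easier to meet, and its share of all probe sets was not counted for these settings. With all 4 arrays the count was 4 after quantile normalization and 5 under each signal filter. The count of genes at least 1 log2 unit above the controls in clone 1 was 2 with WT alone as the control (2916 of 22206 probe sets). It was 6 at 0.5 log2 units, a size not counted over all probe sets. For MOCK minus WT it was 0 after quantile normalization, 0 after median centring and 6 at 0.5 log2 units. The cause was not tested. Of 118 differences of single genes under the alternatives, 100 kept direction and side of the threshold, 12 passed it in addition and 6 changed sign, none of the 6 past the threshold. With an array left out, Psmb9 ran between -0.26 (without clone 2) and 2.62 (without clone 1), Psmb10 between -0.55 and 2.13 for the same arrays, and B2m between -0.0067 (without WT) and 0.88 (without MOCK). Without clone 2 and with quantile normalization, Psmb9 was -0.55, Psmb10 -0.90 and H2-K1 -0.051. H2-T23 lay below background on all arrays, which limits what can be read from it.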

Other observations

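Fcgrt, the neonatal Fc receptor and a class I-like gene, read 7.67 in clone 1 and 9.48 in clone 2, against 8.07 in MOCK and 7.49 in WT. Clone 2 was its highest array, 1.70 log2 units above the control mean, and the test against the controls did not pass (limma, adjusted p = 0.0884). Calr, the chaperone calreticulin, read 17.50 in clone 1 and 17.10 in clone 2, against 16.96 in MOCK and 16.32 in WT, with both clones above both controls (limma, adjusted p = 0.687).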
